A study of Drosophila melanogaster with 4 samples.

Results

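Aminoacyl-tRNA synthetases are the enzymes that load each amino acid onto its transfer RNA. The genes described here were chosen by name alone, as all genes whose symbol is 1 or 2 amino acid abbreviations followed by RS, with the ending -m for the mitochondrial enzymes. The rule found 33 genes among 14372 entries, of which 18 encode cytosolic and 15 mitochondrial enzymes. The study compared RNA of whole Drosophila melanogaster embryos of strain w118 at 0 to 1 h and at 4 to 5 h after egg laying, with 2 libraries per stage. No treatment or mutation separated the groups. RNA was read with Nanopore direct RNA sequencing, in which native RNA molecules pass through the pore without being copied. The libraries were made from the cleared lysate of homogenised embryos and from total RNA. At the first stage an embryo holds mostly RNA supplied by the mother, and by the second its own genome is transcribed.

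A synthetase first activates its amino acid with ATP and then joins it to the end of the matching tRNA, and its accuracy sets that of the genetic code. The enzymes fall into 2 classes that differ in the fold of their catalytic domain, class I and class II. Mitochondria make the proteins of their own genome with a separate set of tRNAs, and most of the enzymes that charge these are encoded by further nuclear genes. Some nuclear genes serve both compartments, as the human glycyl and lysyl enzymes do. In flies the early embryo translates with the machinery that the oocyte stored.

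The libraries held 573843 and 557420 reads at 0-1 h and 883135 and 429527 reads at 4-5 h. Levels are given as CPM (counts per 1000000) after TMM scaling, which sets the libraries level on the bulk of their genes. Deposited TPM, used where genes are compared with each other, are levels divided by transcript length and set to sum to 1000000 in each library. A count of 3 reads was 3.41 and 3.62 CPM at 0-1 h and 5.45 and 9.90 CPM at 4-5 h. Cytosolic ribosomal protein mRNAs made up 23.0% and 25.9% of the 0-1 h libraries, against 49.6% and 49.2% of the 4-5 h libraries, so a gene's share of all reads could fall while its scaled level did not. The 5 maternal markers (nanos, osk, bcd, exu and dhd) summed to 6987 and 6703 reads at 0-1 h and to 96 and 50 at 4-5 h. The 5 zygotic markers (Kr, en, eve, ftz and sna) summed to 5 and 9 reads and then to 140 and 88. Markers of follicle cells and yolk had 0 reads in both 0-1 h libraries and 3 in each 4-5 h library. Markers of sperm and testis had 49 and 60 reads at 0-1 h and 2 and 3 at 4-5 h, all on 1 of 6 genes. Markers of hemocytes had 96 and 98 reads and then 66 and 46, with 3 of 6 genes at 0 in every library. Their part in the results was not tested. In whole embryos, fewer cells of a type and less RNA per cell cannot be told apart.

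Most synthetase mRNAs were lower at 4-5 h than at 0-1 h, and 1, that of the tyrosyl enzyme, was higher on the same scale. All 18 cytosolic genes had at least 24 reads in each 0-1 h library. Their summed share of the library was 0.268% and 0.228% in the 0-1 h replicates and 0.0594% and 0.0726% in the 4-5 h replicates. For the mitochondrial genes this share was 0.0603% and 0.0544%, and then 0.0118% and 0.00908%. Both sums were lower in each 4-5 h library than in either 0-1 h library. On the TMM scale the cytosolic sum was 1.65-fold lower and the mitochondrial sum 2.39-fold lower, and by library size alone 3.75-fold and 5.50-fold lower. With 2 libraries against 2, an exact permutation test cannot go below p = 0.333, so these sums were not tested.

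**Figure D1:**
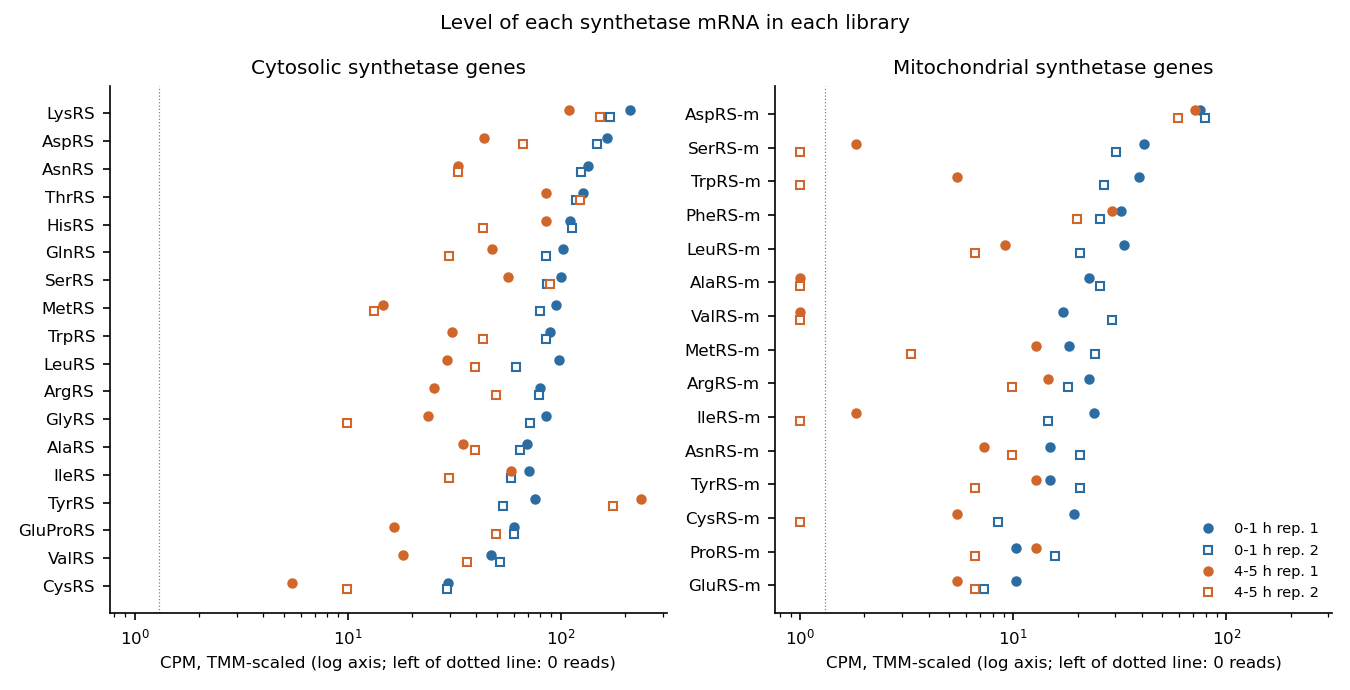
Level of each of the 33 synthetase mRNAs in each library, in CPM after TMM scaling on a log axis, for 0-1 h (blue) and 4-5 h (orange), replicate 1 as filled circles and replicate 2 as open squares, with points left of the dotted line at 0 reads. The orange points lie left of the blue ones for 27 genes and right of them for TyrRS, whose mean is lower at 4-5 h when deposited TPM are used instead. Of all genes with a read, 32.3% had both 4-5 h levels below both 0-1 h levels and 37.9% had both above.

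Single genes were tested with edgeR's quasi-likelihood test across all 6042 genes that passed a filter on low reads, and a gene is called where its Benjamini-Hochberg adjusted p was under 0.05. All 18 cytosolic genes passed the filter. Of these, 14 were called lower at 4-5 h, 1 was called higher and 3 were not called, where 31.5% of all genes tested were called lower and 28.6% higher. Changes are log2 of the level at 4-5 h over that at 0-1 h, each with its standard error (SE). The median log2 change of the 18 was -1.11, and that of all genes tested -0.10. Synthetase mRNAs are of middle length, and among the 3124 tested genes of the same length range (1482 to 4102 nt) 37.8% were called lower and 22.6% higher, with a median of -0.38. The filter asked for 17.7 unscaled CPM in at least 2 libraries, and 12 of the 18 reached it in both 4-5 h libraries. The other 6 (ArgRS, CysRS, MetRS, ValRS, GluProRS and GlyRS) passed through their 0-1 h reads, and all 6 were called lower. They could hardly have been tested had they not been higher at 0-1 h. With no filter 14 of the 18 were called lower, where 23.9% of all genes were. Leaving out 0-1 h replicate 1, 0-1 h replicate 2 or 4-5 h replicate 1 left fewer genes called lower, in the cytosolic set and among all genes. The median change of the 18 was then -1.04, -1.09 and -1.01, and that of all genes -0.06, -0.08 and -0.15. DESeq2 called 4 of the 18 lower (MetRS, AsnRS, AspRS and GlyRS), where it called 1026 of 8561 genes lower.

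Among the cytosolic class I enzymes, 7 of 9 genes fell, TyrRS rose and IleRS was not called. Of all genes tested, 31.5% were called lower and 28.6% higher. ArgRS, CysRS, MetRS and ValRS passed the filter through their 0-1 h reads. With no filter 7 of the 9 were called lower, where 23.9% of all genes were. MetRS, which charges both the initiator and the elongator methionine tRNA, had 94.4 and 79.7 CPM at 0-1 h and 14.5 and 13.2 CPM at 4-5 h. The stages did not overlap, and the level was 6.28-fold lower at 4-5 h (log2 change -2.62, SE 0.40, adjusted p = 3.37e-08). MetRS (FBgn0034401) lies on chromosome arm 2R from 18846858 to 18850599 on the minus strand of BDGP6. CysRS had 29.6 and 29.0 CPM and then 5.45 and 9.90 CPM, which were 3 reads in each 4-5 h library (log2 change -2.02, SE 0.59, adjusted p = 0.0021). The CysRS call was lost without 4-5 h replicate 1 (adjusted p = 0.0888) and with DESeq2 (0.122). Per length it was the least abundant of the cytosolic mRNAs at both stages, with a mean deposited TPM of 12.3 and 0.849. GlnRS, the only glutaminyl enzyme of the set, had 102 and 84.6 CPM at 0-1 h and 47.3 and 29.7 CPM at 4-5 h (log2 change -1.21, SE 0.32, adjusted p = 0.000824). TrpRS had 88.8 and 84.6 CPM and then 30.9 and 42.9 CPM (log2 change -1.28, SE 0.33, adjusted p = 0.00054). For each of these 4 genes both 4-5 h libraries lay below both 0-1 h libraries.

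ArgRS had 79.7 and 78.5 CPM at 0-1 h and 25.4 and 49.5 CPM at 4-5 h (log2 change -1.18, SE 0.34, adjusted p = 0.00174). LeuRS had 97.9 and 61.6 CPM and then 29.1 and 39.6 CPM (log2 change -1.27, SE 0.34, adjusted p = 0.000966). Both stages of each stood apart, but their replicates differed among themselves, at 4-5 h for ArgRS and at 0-1 h for LeuRS. Without 4-5 h replicate 1 their adjusted p rose to 0.158 and 0.0942. The ArgRS call was also lost without 0-1 h replicate 2 (adjusted p = 0.0513), and the LeuRS call without 0-1 h replicate 1 (change -0.91, adjusted p = 0.129). ValRS had 46.7 and 51.9 CPM at 0-1 h and 18.2 and 36.3 CPM at 4-5 h (log2 change -0.96, SE 0.40, adjusted p = 0.0322). The ValRS call was lost when any library but 4-5 h replicate 2 was left out, with a lowest change of -0.44 without 4-5 h replicate 1. IleRS had 70.6 and 58.0 CPM and then 58.2 and 29.7 CPM (log2 change -0.46, SE 0.33, adjusted p = 0.232), and its stages overlapped.

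TyrRS, the tyrosyl enzyme, stood apart from the other cytosolic genes. It had 66 and 44 reads at 0-1 h and 131 and 53 reads at 4-5 h, which were 75.1 and 53.2 CPM and then 238 and 175 CPM. The level rose 3.22-fold on the TMM scale (log2 change 1.70, SE 0.26, adjusted p = 4.17e-08), while deposited TPM gave a change of the opposite sign (-0.25 on log2(TPM + 1), adjusted p = 0.448 by limma). By library size alone the change was 0.50 (adjusted p = 0.09). The scales themselves moved, since the median of all genes was -0.10 with TMM, -1.29 by library size and -1.66 on log2(TPM + 1). Relative to that median TyrRS was higher by 1.80, 1.79 and 1.41 on the 3 scales. Relative to the medians of their own fits it was higher by 1.37 with DESeq2 and by 0.89 on log2(TPM + 5). TyrRS reads were 4.30% (95% Wilson interval 3.39 to 5.43) and 3.47% (2.59 to 4.62) of the cytosolic synthetase reads at 0-1 h. At 4-5 h they were 25.0% (21.4 to 28.8) and 17.0% (13.2 to 21.6). This share depends on no scaling, and both 4-5 h libraries lay above both 0-1 h libraries. The intervals cover counting error only.

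TyrRS (FBgn0027080) lies on chromosome arm 3L from 16417349 to 16419302 on the minus strand, and has 1 annotated transcript. Its downstream neighbour is another synthetase gene, the mitochondrial GluRS-m (FBgn0036629), from 16415292 to 16417177 on the same strand and 171 bp away. GluRS-m had 9 and 6 reads at 0-1 h and 3 and 2 at 4-5 h, or 10.2, 7.25, 5.45 and 6.60 CPM, which was too few for the filter. Both 4-5 h levels of GluRS-m thus lay below both 0-1 h levels, the reverse of the order at TyrRS, but with no filter its adjusted p was 0.535.

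**Figure D2:**
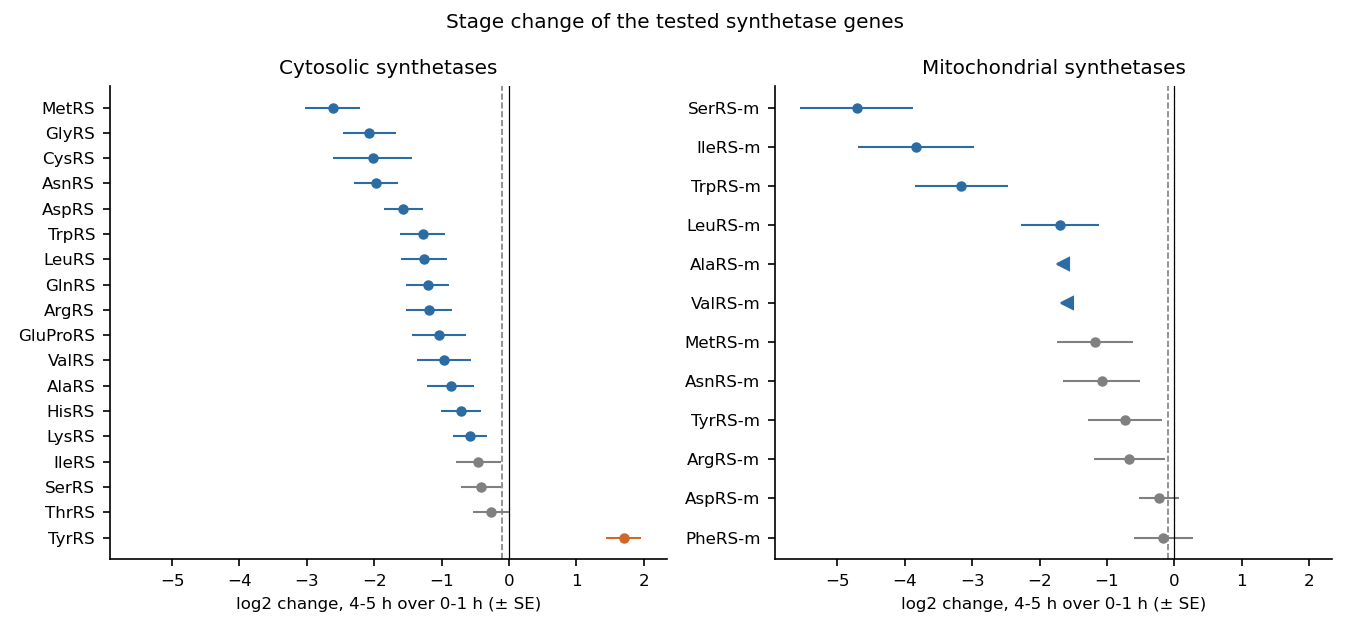
Log2 change from 0-1 h to 4-5 h with its standard error for the 18 cytosolic and the 12 tested mitochondrial synthetase genes on the TMM scale, with called genes in blue (lower) and orange (higher), genes not called in grey, the median of all genes tested as a dashed line, and triangles at the bound of genes with 0 reads at 4-5 h. TyrRS at 1.70 is the only gene right of 0, and changes sign when deposited TPM are used.

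GluProRS is the bifunctional enzyme that charges both glutamate and proline and so holds a class I and a class II domain. It had 60.3 and 60.4 CPM at 0-1 h and 16.4 and 49.5 CPM at 4-5 h (log2 change -1.04, SE 0.39, adjusted p = 0.0191). The 0-1 h replicates agreed closely, and the 4-5 h replicates, at 9 and 15 reads, lay far apart. The change was -0.28 without 4-5 h replicate 1 (adjusted p = 0.589). Its gene (FBgn0005674) spans 23952136 to 23958391 of chromosome arm 3R on the minus strand, and 905 bp of its exons face an antisense RNA gene.

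Among the cytosolic class II enzymes, 6 of 8 genes fell, where 31.5% of all genes tested were called lower. The median log2 change was -0.79 against -1.21 in class I, a difference that was not tested. AsnRS had 134 and 124 CPM at 0-1 h and 32.7 and 33.0 CPM at 4-5 h (log2 change -1.97, SE 0.33, adjusted p = 2.27e-07). GlyRS had 85.3 and 71.3 CPM and then 23.6 and 9.90 CPM (log2 change -2.07, SE 0.39, adjusted p = 4.63e-06). AspRS had 165 and 147 CPM at 0-1 h and 43.6 and 66.0 CPM at 4-5 h (log2 change -1.57, SE 0.29, adjusted p = 3.58e-06). Each of these stood clearly apart between the stages, and each was called lower under every alternative run. GlyRS had only 13 and 3 reads at 4-5 h and passed the filter through its 0-1 h reads. AspRS shares 154 bp of exon with an RNA gene on its own strand, whose reads could be mixed with its own even if strand was used in counting. On the other strand it shares exon sequence with an antisense RNA gene and, over 127 bp, with Nmda1. Reads of these could be mixed if strand was not used.

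AlaRS had 69.4 and 64.0 CPM at 0-1 h and 34.5 and 39.6 CPM at 4-5 h (log2 change -0.87, SE 0.35, adjusted p = 0.0255). HisRS had 110.4 and 112 CPM and then 85.4 and 42.9 CPM (log2 change -0.71, SE 0.30, adjusted p = 0.0325). LysRS, the most abundant synthetase mRNA per length at 0-1 h, had 211 and 170.3 CPM at 0-1 h and 109 and 152 CPM at 4-5 h (log2 change -0.57, SE 0.26, adjusted p = 0.046). These 3 changes were the smallest of those called, and each call was lost in 3 of the 4 fits that left out a library, with adjusted p up to 0.159 for AlaRS, 0.243 for HisRS and 0.331 for LysRS. HisRS also shares 255 bp of exon on the same strand with Bx, which had 59 and 54 reads at 0-1 h and 0 at 4-5 h, and whose part in the result was not tested. With RLE size factors LysRS had an adjusted p = 0.066. SerRS had 100.1 and 85.8 CPM at 0-1 h and 56.3 and 89.1 CPM at 4-5 h, and ThrRS had 126 and 117 CPM and then 85.4 and 122 CPM. Neither was called (log2 changes -0.41, SE 0.30, and -0.27, SE 0.27, adjusted p = 0.23 and 0.399), and the stages overlapped for both.

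In mammals 8 of these cytosolic enzymes (ArgRS, AspRS, GlnRS, GluProRS, IleRS, LeuRS, LysRS and MetRS) sit together in the multi-synthetase complex. Their counterparts here included 7 genes called lower, with a median log2 change of -1.20. The 10 cytosolic genes outside that list included 7 called lower and 1 higher, with a median of -0.92. Of all genes tested, 31.5% were called lower and 28.6% higher. The lists overlapped widely, from -2.62 to -0.46 in the complex and from -2.07 to 1.70 outside it, and their difference was not tested.

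The mitochondrial enzymes were encoded by mRNAs with fewer reads, and several of these were close to or at 0 reads at 4-5 h. All 15 genes had reads in both 0-1 h libraries, between 6 and 66 each. At 4-5 h the range was 0 to 39 reads. Of the 15 genes, 13 had both 4-5 h levels below both 0-1 h levels, as did 14 of the 18 cytosolic genes, where 32.3% of the 8561 genes with a read and 42.1% of those tested did so. TyrRS alone had both 4-5 h levels above, where 37.9% of genes with a read did so, and the stages overlapped for 3 cytosolic and 2 mitochondrial genes. In the test, 12 mitochondrial genes passed the filter, of which 6 were called lower, 0 higher and 6 were not called. Of all genes tested, 31.5% were called lower and 28.6% higher. Only AspRS-m reached the filter's level in both 4-5 h libraries, so the others passed through their 0-1 h reads and could hardly have been tested had they not been higher there. With no filter all 15 were tested and 7 were called lower, CysRS-m being the addition, beside 14 of the 18 cytosolic genes and 23.9% of all genes. The 0 genes called higher held for every tool and scaling run, and in the fit of all 4 libraries 0 of the 12 had a positive change.

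In mitochondrial class I, 4 of the 7 tested genes fell, where 31.5% of all genes tested were called lower. ValRS-m had 15 and 24 reads at 0-1 h and 0 in both 4-5 h libraries, so its level was at least 3.0-fold lower against a floor of 3 reads per library (adjusted p = 2.3e-06). IleRS-m had 21 and 12 reads and then 1 and 0, a ratio of 16.5 between the stages with a 95% counting interval from 2.76 to 671 (adjusted p = 8.36e-05). TrpRS-m had 34 and 22 reads and then 3 and 0, a ratio of 9.33 with an interval from 3.03 to 46.6 (adjusted p = 4.85e-05). These intervals lie above 1 but are wide, so the size of the change is loosely known at this depth. LeuRS-m had 33.0 and 20.5 CPM at 0-1 h and 9.09 and 6.60 CPM at 4-5 h (log2 change -1.69, SE 0.57, adjusted p = 0.00844), and its call was lost without 0-1 h replicate 1 or either 4-5 h library. MetRS-m, ArgRS-m and TyrRS-m had lower levels in both 4-5 h libraries but were not called, with log2 changes of -1.17 (SE 0.56), -0.67 (SE 0.53) and -0.74 (SE 0.55). CysRS-m had 17 and 7 reads at 0-1 h and 3 and 0 at 4-5 h, a ratio of 4.00 with an interval from 1.21 to 20.8.

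In mitochondrial class II, 2 of the 5 tested genes fell, a share near the 31.5% of all genes tested that were called lower. AlaRS-m had 20 and 21 reads at 0-1 h and 0 in both 4-5 h libraries, at least 3.14-fold lower (adjusted p = 1.37e-06). SerRS-m had 36 and 25 reads and then 1 and 0, a ratio of 30.5 with an interval from 5.27 to 1224 (adjusted p = 1.01e-06). At 0-1 h it had 41.0 and 30.2 CPM and the highest deposited TPM of the mitochondrial set, a mean of 21.1. Over 356 bp its exons face Nagk on the other strand, which kept 17 and 4 reads at 4-5 h. AsnRS-m had 14.8 and 20.5 CPM and then 7.27 and 9.90 CPM and was not called (log2 change -1.08, SE 0.57, adjusted p = 0.0976).

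AspRS-m, PheRS-m and ProRS-m were the mitochondrial genes whose levels moved least. AspRS-m had 75.1 and 79.7 CPM at 0-1 h and 70.9 and 59.4 CPM at 4-5 h (log2 change -0.22, SE 0.30, adjusted p = 0.53). At 4-5 h it held 39 of the 104 and 18 of the 39 mitochondrial synthetase reads. PheRS-m, the single-chain mitochondrial phenylalanyl enzyme, had 31.9 and 25.4 CPM and then 29.1 and 19.8 CPM (log2 change -0.17, SE 0.44, adjusted p = 0.758). ProRS-m, which was not tested, had 10.2 and 15.7 CPM and then 12.7 and 6.60 CPM. The stages of the last 2 overlapped.

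The median log2 change of the 12 tested mitochondrial genes was -1.43, or -1.38 with the 2 genes at 0 reads placed at their bound, beside -1.11 in the cytosolic set. Since 11 of the 12 passed the filter through their 0-1 h reads, these medians do not compare like with like. With no filter the median was -1.28 over all 15 mitochondrial genes and -1.20 over the 18 cytosolic genes, where that of all genes was 0.24. Mitochondrial enzymes took 18.4% (95% Wilson interval 16.7 to 20.2) and 19.3% (17.4 to 21.3) of all synthetase reads at 0-1 h. At 4-5 h they took 16.5% (13.8 to 19.6) and 11.1% (8.24 to 14.8). The share was lower in both 4-5 h libraries, but the interval of replicate 1 overlapped those of the 0-1 h libraries. With TyrRS left out, the cytosolic sum was 2.01-fold lower on the TMM scale, beside 2.39-fold for the mitochondrial sum.

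Levels of different genes were compared per length, on the deposited TPM, and the order of genes depends on that division. At 0-1 h the mean TPM ranged from 12.3 to 102.4 in the cytosolic set with a median of 39.2, and from 5.65 to 21.1 in the mitochondrial set with a median of 9.34. LysRS, AspRS, AsnRS, HisRS and SerRS led the cytosolic genes, with 102.4, 84.2, 69.2, 58.2 and 57.0 TPM. In the mitochondrial set SerRS-m was followed by PheRS-m with 20.9 TPM, AspRS-m with 18.7, TrpRS-m with 13.8 and AsnRS-m with 13.2. By CPM, which is not divided by length, AspRS-m led that set at 0-1 h with a mean of 77.4, beside 35.6 for SerRS-m. At 4-5 h the medians were 4.15 TPM and 0.895 TPM.

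For 14 amino acids both a cytosolic and a mitochondrial gene were present, with GluProRS standing for both glutamate and proline. The GluProRS level sums coding forms of 1714 and 996 codons, which end at the same stop codon, so the shorter lacks the first 718 codons. The 1714-codon form alone had 4 and 38 reads at 0-1 h and 0 at 4-5 h. GluRS-m had 9 and 6 reads and then 3 and 2, so the order for glutamate depends on counting both forms. The cytosolic mRNA had the higher TPM in both 0-1 h libraries for 14 of 14 amino acids, by 1.11-fold to 6.46-fold. By reads, with no division by length, the order at 0-1 h was the same, but the size of these ratios depends on that division. The smallest ratio was that of proline in replicate 2, where GluProRS had 50 reads and ProRS-m 13. The largest was that of asparagine in replicate 1. At 4-5 h it was higher in both libraries for 11 of 14. The exceptions were cysteine, methionine and proline, each with at most 15 reads per library. All 3 were reversed in replicate 1 and not in replicate 2. In replicate 1 CysRS had 0.568 TPM and CysRS-m 0.670, MetRS had 1.05 and MetRS-m 1.39, and GluProRS had 1.29 and ProRS-m 2.31. Their reads there were 3 and 3, 8 and 7, and 9 and 7, so without division by length the order was not reversed. AspRS, higher than AspRS-m on TPM, had fewer reads in replicate 1, 24 against 39, and 20 against 18 in replicate 2.

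With no filter on low reads, the mitochondrial change was the lower one for 7 of the 14 amino acids and the higher one for 7. Both genes passed the filter for 11 amino acids, and the values that follow are from that fit. For aspartate the mitochondrial gene had a change 1.34 above that of the cytosolic gene (SE 0.42, taking the 2 estimates as independent), with AspRS at -1.57 and AspRS-m at -0.22. For methionine the difference was 1.45 (SE 0.69). The opposite order was seen for tyrosine, where the mitochondrial change was 2.44 below the cytosolic one, or -2.44 (SE 0.61), and for serine and isoleucine, whose mitochondrial mRNAs had 1 read at 4-5 h while SerRS and IleRS were not called. For leucine the difference was -0.43 (SE 0.67) and for arginine 0.52 (SE 0.63), both within their errors. These differences are descriptions and were not tested across pairs.

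**Figure D3:**
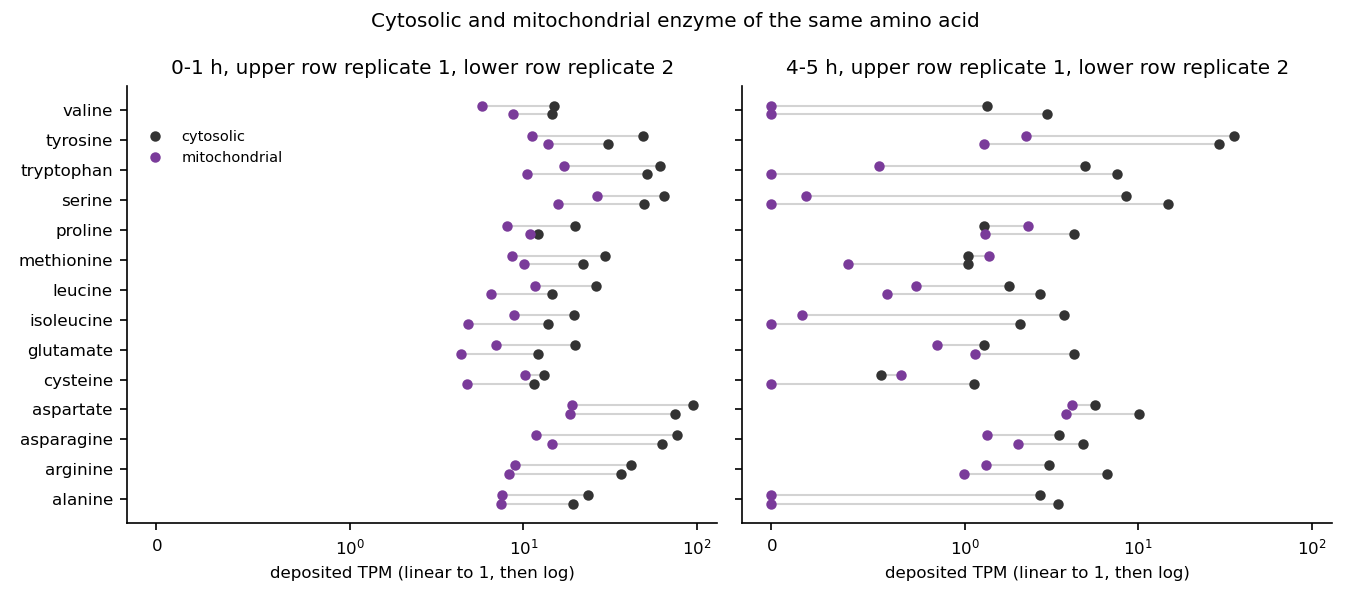
Deposited TPM of the cytosolic (black) and mitochondrial (purple) enzyme for 14 amino acids in each library, with 0-1 h on the left and 4-5 h on the right, replicate 1 in the upper and replicate 2 in the lower row of each amino acid, on an axis that is linear to 1 and logarithmic above. The black point lies to the right in every 0-1 h row, and at 4-5 h it does so in both rows for 11 amino acids.

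Genes of the set were spread over all large chromosome arms, and 7 of the 15 mitochondrial genes lay on 3L while 0 lay on X, beside 3 of each kind on 3R and 4 of each on 2R. In the annotation 20 of the 33 genes have more than 1 transcript, 3 have no intron, and 7 have coding sequences of more than 1 length. Of the 5 cytosolic genes with no mitochondrial gene for the same amino acid (GlnRS, GlyRS, HisRS, LysRS and ThrRS), 4 are among those 7, GlnRS being the exception. In mitochondria glutaminyl tRNA is commonly made by an amidotransferase instead of a glutaminyl enzyme. The long and short coding sequences of GlyRS, LysRS and ThrRS end at the same stop codon and differ at their start.

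ThrRS (FBgn0027081, chromosome arm 2L from 12103751 to 12107170, plus strand) had its reads on a pair of coding sequences. Its coding sequence of 690 codons had 65.1 and 31.0 reads at 0-1 h and 0 in both 4-5 h libraries. The longer sequence of 747 codons had 46.4 and 66.0 reads and then 47 and 37. The long form thus held 41.6% and 68.1% of the gene's reads at 0-1 h and 100% in both libraries at 4-5 h, where 0 reads allow the short form up to 6.38% and 8.11%. The total level of ThrRS was not called changed. A test of transcript usage by annotated transcript (diffSpliceDGE in edgeR) included ThrRS and SerRS-m and called 0 of these 2, with unadjusted p = 0.114 and 0.177, where 13.1% of 823 genes were called. With transcripts of the same coding sequence summed, a choice made after seeing the data, ThrRS had an adjusted p = 0.0381, where 11.7% of 367 genes were called. That call was lost when any library was left out, with adjusted p from 0.153 to 0.341.

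LysRS had its longer sequence of 607 codons in 3.10% and 18.9% of reads at 0-1 h and in 0 of 60 and 0 of 46 reads at 4-5 h, which allow up to 5.00% and 6.52%. HisRS had its sequence of 522 codons in 74.2% and 78.0% of reads at 0-1 h and in 100% at 4-5 h. The rest at 0-1 h was on 564 codons in replicate 1 and on 554 codons in replicate 2. GlyRS was on 679 codons in every library but 0-1 h replicate 2, where all 59 reads were on 765 codons. For GluProRS 92.4% and 24.0% of 0-1 h reads were on a transcript that encodes 996 codons instead of 1714, and all 9 and 15 reads at 4-5 h were. The 0-1 h replicates thus disagreed on the main form for GlyRS and GluProRS, and also for ThrRS, which had 58.4% of its reads on 690 codons in replicate 1 and 68.1% on 747 codons in replicate 2. Of 18 genes with several transcripts and at least 10 reads in both 0-1 h libraries, 10 had the same leading transcript in both replicates, as did 7 of 10 at 4-5 h, so these forms are uncertain. Direct RNA reads begin at the 3′ end of the molecule, and whether they reached the 5′ part in which the forms differ was not tested.

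**Figure D4:**
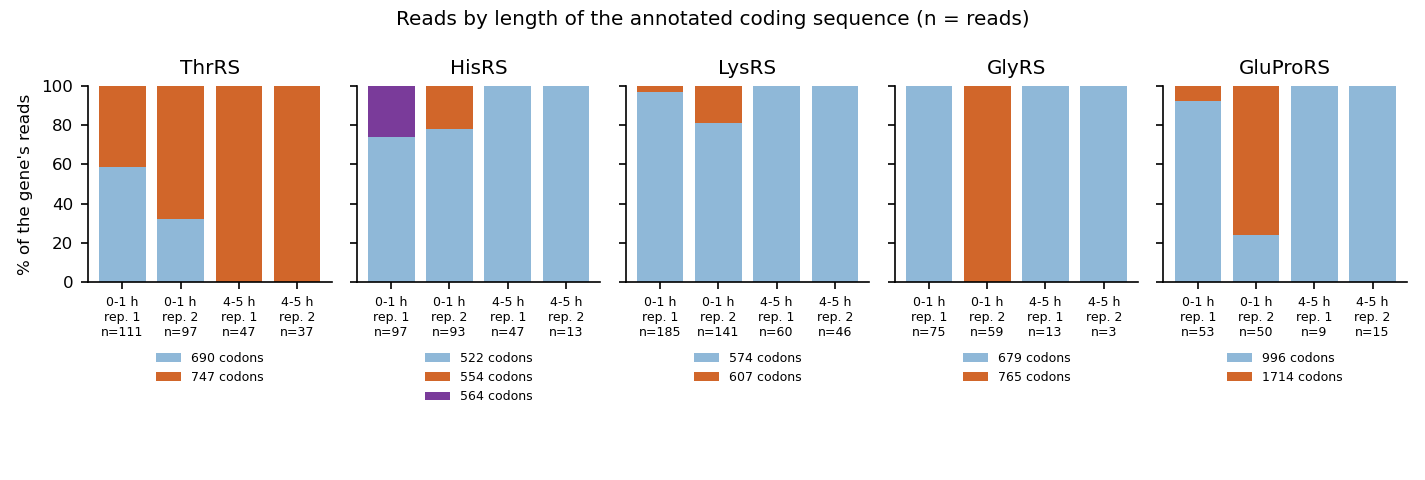
Share of a gene's reads (0 to 100%) on transcripts of each annotated coding length in each library for ThrRS, HisRS, LysRS, GlyRS and GluProRS, with the number of reads under each bar. ThrRS is on 747 codons alone at 4-5 h, and the 0-1 h replicates of ThrRS, GlyRS and GluProRS differ in their leading form.

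The partners of the synthetases were followed in a list of 31 genes for subunits, scaffold, tRNA maturation, sensing and the elongation factors that receive charged tRNA. Of these, 28 were found by symbol and 24 were tested, with 6 called higher, 8 lower and 10 not called, where 31.5% of all genes tested were called lower and 28.6% higher. Among those called lower, alpha-PheRS, beta-PheRS, mEFG1, GatB and RNaseZ did not reach the filter's level in both 4-5 h libraries. They passed through their 0-1 h reads. With no filter all 28 were tested, with 8 called higher and 8 lower, where 24.7% and 23.9% of all genes were. The phenylalanyl enzyme of the cytosol is built from 2 kinds of subunit whose symbols fall outside the naming rule. alpha-PheRS had 104 and 80.9 CPM at 0-1 h and 27.3 and 36.3 CPM at 4-5 h (log2 change -1.58, SE 0.34, adjusted p = 3.98e-05). beta-PheRS had 95.6 and 70.1 CPM and then 18.2 and 33.0 CPM (log2 change -1.79, SE 0.37, adjusted p = 1.75e-05). Both fell, by amounts that differed by less than their errors. Of the 3 scaffold genes of the multi-synthetase complex, AIMP1 fell (log2 change -0.70, SE 0.28, adjusted p = 0.0265), while AIMP2 at -0.15 (SE 0.27) and AIMP3 at 0.42 (SE 0.29) were not called.

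The cytosolic elongation factor subunits, which carry charged tRNA to the ribosome or recharge the carrier, moved the other way on the TMM scale, though not on deposited TPM. eEF1alpha1 had 5203 and 6068 CPM at 0-1 h and 21389 and 18854 CPM at 4-5 h (log2 change 1.84, SE 0.19, adjusted p = 1.99e-14). eEF1gamma rose by 1.92 (SE 0.21), eEF1beta by 1.62 (SE 0.21) and eEF1delta by 0.68 (SE 0.21). On deposited TPM the 4 had lower means at 4-5 h, with eEF1alpha1 at 2775 and 2964 TPM and then 2705 and 2487. The median change of all genes on log2(TPM + 1) was itself -1.66. The mitochondrial factors fell, mEFTu1 and mEFTs each by a log2 change of -1.55 (SE 0.34) and mEFG1 by -1.05 (SE 0.40). GatB, a subunit of the mitochondrial amidotransferase, had 31.9 and 30.2 CPM and then 9.09 and 6.60 CPM (log2 change -1.90, SE 0.56, adjusted p = 0.00254), while its partner subunit GatA was not called (-0.82, SE 0.44). Slimp, a relative of the mitochondrial seryl enzyme in insects, was not called (-1.15, SE 0.56, adjusted p = 0.0667).

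Among the sensing and processing genes, crc, the fly ATF4 that drives amino acid response genes, had 83.1 and 88.2 CPM at 0-1 h and 343 and 337 CPM at 4-5 h. It rose with a log2 change of 1.99 (SE 0.25, adjusted p = 4.49e-11), while its deposited TPM were 44.0 and 43.5 and then 45.8 and 50.8. Gcn2, the kinase that senses uncharged tRNA, had few reads and was not called (-0.82, SE 0.55). RNaseZ, which trims the 3′ end of tRNA precursors, fell (-1.43, SE 0.54, adjusted p = 0.0171). Nsun2, a tRNA cytosine methyltransferase, rose (1.09, SE 0.36, adjusted p = 0.00688) on the TMM scale, whereas on TPM its level went from 14.3 and 11.0 to 5.48 and 9.08. The TPM values of crc and Nsun2 stand beside a median change of all genes of -1.66 on log2(TPM + 1). The 24 partners had a median log2 change of -0.47, between that of all genes and that of the synthetases.

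**Figure D5:**
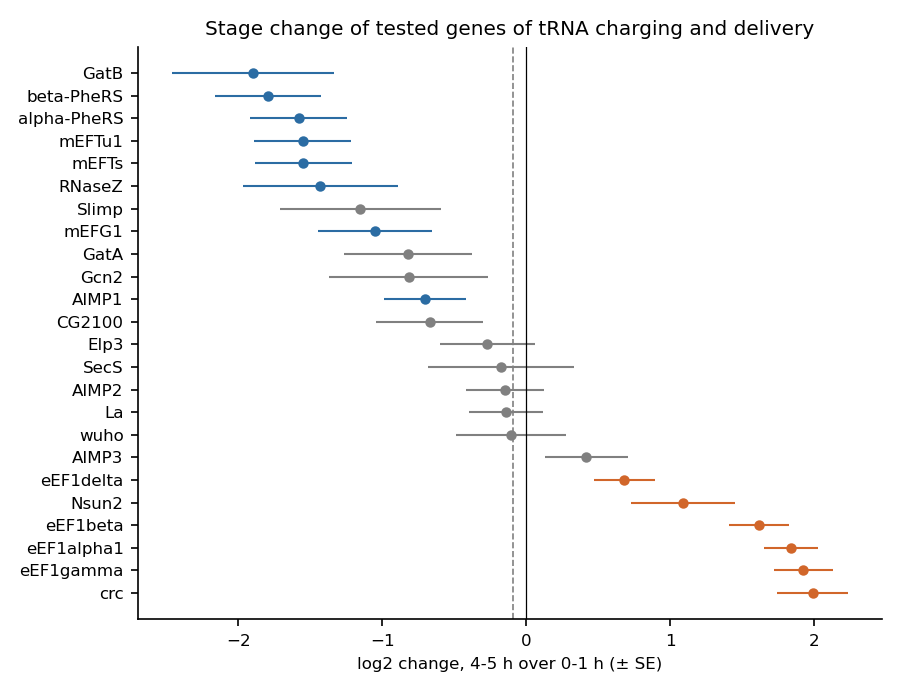
Log2 change from 0-1 h to 4-5 h with its standard error for the 24 tested partner genes of tRNA charging on the TMM scale, with called genes in blue (lower) and orange (higher), genes not called in grey and the median of all genes tested as a dashed line. Mitochondrial factors and phenylalanyl subunits lie left of 0, and cytosolic elongation factor subunits lie right of 0. On deposited TPM the latter do not, where the median of all genes is itself -1.66 on log2(TPM + 1).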

How the data were processed

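Per the labels' protocols, total RNA of embryo lysate was extracted with TRI-reagent and read by Nanopore direct RNA sequencing. The submitters' processing notes name minimap2, Salmon and the genome build BDGP6, without versions or settings, and strand use is not stated. The deposited tables give, per transcript, an expected count of reads estimated by Salmon and a TPM that the authors obtained with an effective length, the transcript length less 250 nt in 99.0% of entries. Of 30652 entries, 30280 were matched by identifier to Ensembl release 115 of BDGP6.54, 371 were kept unmatched and 1 that is not from the fly was left out. Lengths were the same for 99.4% of matches.

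Expected counts were summed per gene, rounded and tested in R 4.3.3 with edgeR 4.0.16 (filterByExpr at a minimum count of 10, TMM, robust quasi-likelihood F test, stage as the only term) across all genes, with Benjamini-Hochberg adjustment. All p-values of single genes come from this fit unless another is named. Transcript usage was tested with diffSpliceDGE. DESeq2 1.42.0, and limma 3.58.1 on log2 of the summed TPM plus 1 or 5, served as alternatives, as did other scalings and filters, thinning, a replicate term and leaving out each library. The scripts were tested on simulated data. The labels do not say whether replicates came from separate collections, so each p-value reflects the spread of these libraries only, and this may be technical. Floors of 3 reads and 95% intervals cover counting error only.

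The genes were taken by symbol, all 33 are accounted for, and the text names every called gene, the 5 of each set with the highest TPM at 0-1 h, and, of the partner list, the called subunits and scaffold genes and others with small p. The genes and lists were chosen with earlier results of these data known, and are a description of these libraries. The protein and promoter comparison planned for the set was not run, and no sequence was used here.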

Additional observations from a re-analysis of the deposited data

Results flagged for a closer look

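A single reference entry outside the fly transcriptome, a yeast sequence, held reads in data that no comparison used. It had 0 and 4 reads in 0-1 h replicates 1 and 2 and 3 and 7 reads in 4-5 h replicates 1 and 2. It is listed because 4 and 7 exceed the floor of 3 reads that a count of 0 allows. No synthetase result uses these reads, which were left out of library sizes.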

How the results depend on the processing

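Of the 20 synthetase genes called lower, 8 were called lower under every alternative run for them (MetRS, AsnRS, AspRS, GlyRS, AlaRS-m, SerRS-m, TrpRS-m and ValRS-m). The mitochondrial genes among them were not tested at a minimum count of 30. These genes, MetRS and GlyRS passed the main filter through their 0-1 h reads, and with no filter each was still called lower. Of 435 changes of single genes under alternatives, 348 kept their direction and side of the threshold, 46 lost the call, 37 gained one and 4 turned sign, and the cause was not tested. The 4 were TyrRS at -0.25 and -0.23 with limma on log2(TPM + 1) and log2(TPM + 5), ThrRS without 4-5 h replicate 1 and PheRS-m without 4-5 h replicate 2. Leaving out a library, ThrRS ranged from -0.51 to 0.0050 and PheRS-m from -0.53 to 0.022.

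By library size alone 0 cytosolic genes were called higher, 12 mitochondrial and 19 partner genes lower, and 654 of all genes higher and 3828 lower. With library size counted without ribosomal protein genes, 11 mitochondrial and 15 partner genes were lower, where 2824 of all 6042 genes tested were lower and 1069 higher. With limma on log2(TPM + 1), 0 cytosolic and 0 partner genes were higher, 15 mitochondrial and 20 partner genes lower, and 542 of all genes higher and 5102 lower. With log2(TPM + 5) these counts were 0, 1, 15, 20, 547 and 5125. DESeq2 called 4 cytosolic and 4 partner genes lower and 1026 of all genes. At a minimum count of 30, 1 mitochondrial gene was tested and 0 called, and 33 genes had changed transcript usage, against 108. Summed by coding sequence, 43 genes and 1 synthetase had changed usage. Leaving out a library, cytosolic genes called lower ranged from 7 to 13, partner genes from 5 to 7 and genes with changed usage from 0 to 1; the adjusted p of ThrRS forms ranged from 0.153 to 0.341.

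Shares of the library changed with the denominator. Outside ribosomal protein reads the mean cytosolic share was 0.327% at 0-1 h and 0.131% at 4-5 h, and on TPM 0.0756% and 0.0125%. The mitochondrial shares were 0.0758% and 0.0206%, and on TPM 0.0171% and 0.00183%.

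With the replicate number as a block, 10 cytosolic and 6 mitochondrial genes were called lower, where 1694 of all 6042 genes tested were. ValRS, AlaRS, HisRS and LysRS lost their calls. Transcript usage had 0 calls among all genes with the block, and ThrRS forms an adjusted p of 0.424. Deviations of same-numbered libraries correlated at -0.159, and the labels do not say that equal numbers share anything, so the numbers name the libraries only. At 4-5 h, 3 reads were up to 9.90 CPM, which limits every mitochondrial value.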
